A study of Mus musculus with 6 samples.

Results

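The baseline transcriptome of control GC1-Spg cells was read from the 3 arrays of cells that had received scrambled siRNA, out of 6 arrays in the series. GC1-Spg is an established mouse line made by immortalising type B spermatogonia with the SV40 large T antigen. The cultures were grown in DMEM with 10% FBS, transfected with siRNA at 100 nM and lysed in Trizol 44 h later. Biotin-labelled cRNA made from 6 µg of total RNA was hybridised to a single-colour Affymetrix array per culture. The sample titles call the 3 replicates biological, and nothing further says how separate the cultures were, so the p-values measure the spread between these 3 samples. The cells are of 1 line, and no untransfected culture was analysed here, so the level of a gene in growing GC1-Spg cells cannot be told apart from its level after transfection. The value table held 45101 rows, of which 64 were control rows. The other 45037 probe sets gave 18193 genes, each read through the brightest of the probe sets that the probe table pairs with that gene alone. No value of the mrhl siRNA arrays was used.

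Spermatogonia are the germ cells at the base of the seminiferous tubule that divide by mitosis, and they include the stem cells of spermatogenesis. Undifferentiated spermatogonia depend on the GDNF receptor encoded by Gfra1 and Ret and express the transcription factor PLZF, the product of Zbtb16. Differentiating spermatogonia switch on the receptor Kit and then enter meiosis through Stra8. Germ cells of all these stages express the RNA helicase Ddx4 and the RNA-binding protein Dazl. In the testis the germ cells sit between Sertoli cells, inside a wall of peritubular myoid cells, with Leydig cells outside.

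Levels are log2 signals, averaged over the 3 arrays. The probes of different genes bind with different strength, so a level ranks a probe set's signal and does not count transcripts, and no fold is given between genes. A gene was called dim when its mean lay under the 25th percentile of all probe set means, a log2 signal of 3.64. It was called weak from there to the median of 5.24, middle up to the 90th percentile of 9.31, and strong above that. By these classes 3287 genes (18.1%) were dim, 3908 (21.5%) weak, 8212 (45.1%) middle and 2786 (15.3%) strong, so that 10998 genes (60.5%) stood at or above the median. In limma's test of each level against the dim limit, adjusted over all probe sets by the Benjamini-Hochberg method, 13610 genes (74.8%) passed above it and 1684 (9.26%) below it, and 2899 were not told apart from it. Over all probe sets the share above was 66.4%. The limit is a percentile of these same means, so both shares are largely set by it and do not count expressed genes. Just under the limit lay Pzp at 3.6363 and Trim66 at 3.6387, and just over it Wdr17 at 3.6389 and Lct at 3.6391.

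The dim limit is a quartile of these data and not a limit of detection. Odorant and vomeronasal receptors, which are read mainly in sensory neurons of the nose, served as a yardstick. Whether some of them are also expressed in germ cells was not examined, so they are not a set of known silent genes. Their 71 measured members had a 95th percentile of 4.93, and 16 of them (22.5%) still passed above the dim limit. At or above the median stood 0 of 39 odorant receptors and 1 of 32 vomeronasal receptors. Against the receptors' 95th percentile in place of the dim limit, a choice made after the data were seen, 10696 genes (58.8%) passed. Shares at or above the median are therefore given below beside the calls. Each list's counts are to be read against 60.5% of all genes at or above the median, 74.8% passed above the limit and 15.3% strong.

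**Figure D1:**
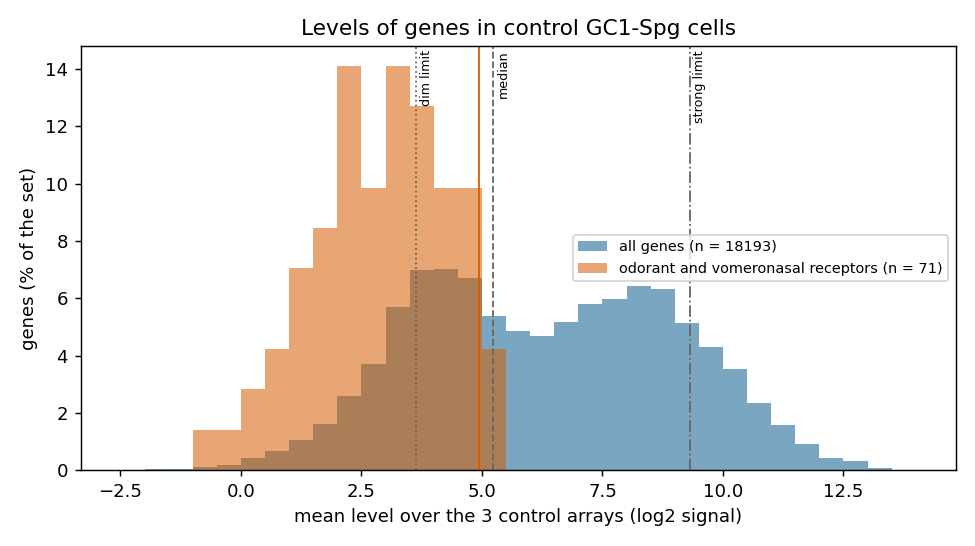
Distribution of mean log2 signal over the 3 control arrays for 18193 genes and for 71 odorant and vomeronasal receptors, in percent of each set, with grey lines at the dim limit (3.64), the median (5.24) and the strong limit (9.31) and an orange line at the receptors' 95th percentile (4.93). All genes form a lower and an upper hump, and the receptors lie under the lower one, with 1 of the 71 at or above the median.

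The arrays correlated across probe sets at 0.958 (1 and 2), 0.958 (1 and 3) and 0.9685 (2 and 3), and their medians were 5.19, 5.29 and 5.30. The median SD of a gene over the arrays was 0.24. It fell with level, from 0.56 in the dim class through 0.27 and 0.20 to 0.15 in the strong class. A gene kept the same class on all 3 arrays in 69.2% of the dim, 66.0% of the weak, 90% of the middle and 88.7% of the strong genes. Array 1 stood apart in the control rows. Its poly-A spike-in rows averaged 4.27 against 8.45 and 7.84 on arrays 2 and 3, and its 18S rRNA rows 3.76 against 6.50 and 5.52, whereas its hybridization spikes read 9.97 against 9.49 and 9.43. Without array 1, 13258 genes passed above the dim limit.

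Promoters were compared across the level classes, because the sequence around the start site was no part of how the classes were made. RefSeq promoters (GRCm38.p6) from 250 bases before to 50 bases after the start were found for 14367 of the genes. A promoter was called CpG-rich at a GC content of at least 50% and a ratio of observed to expected CpG of at least 0.6. The share of CpG-rich promoters was 22.0% among dim genes (95% Wilson interval 20.4 to 23.6), 30.7% among weak (29.1 to 32.4), 68.5% among middle (67.4 to 69.6) and 78.3% among strong genes (76.5 to 79.9). Over all 14367 it was 54.2%, and over all 27025 RefSeq promoters 34.1%. The median GC content moved from 51.0% in dim to 62.0% in strong genes. Genes are not independent samples, and these intervals cover counting error only.

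Short motifs were searched as exact letters on both strands. The GC box GGGCGG, the letters bound by Sp1-type factors, was found in 29.6%, 38.4%, 64.5% and 71.0% of promoters from dim to strong (54.1% over all). The ETS-type site CCGGAAG was found in 4.65%, 5.71%, 17.8% and 22.5% (13.8% over all). The NRF1-type site CGCATGCG moved from 1.32% to 4.62%, the YY1-type site AAGATGGC from 1.64% to 5.70% and the CRE TGACGTCA from 1.56% to 3.37%. The rare E2F-type site TTTCGCGC moved from 0.0401% (1 of 2493 dim promoters) to 1.08% (25 of 2315 strong promoters). All of these but AAGATGGC hold a CG pair, which the CpG-rich class counts. The TATA box TATAAA went the other way, with 16.6%, 12.7%, 6.89% and 7.30%, and within 20 to 40 bases before the start with 5.90%, 4.80%, 1.55% and 1.56%. The CCAAT box was nearly level, with 37.5%, 36.3%, 39.0% and 39.3%. When the genes were ranked by level and cut into 10 groups of equal size, the CpG-rich share was 19.8% in the dimmest group, 54.8% in group 5, 77.8% in group 8 and 77.5% in the brightest.

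**Figure D2:**
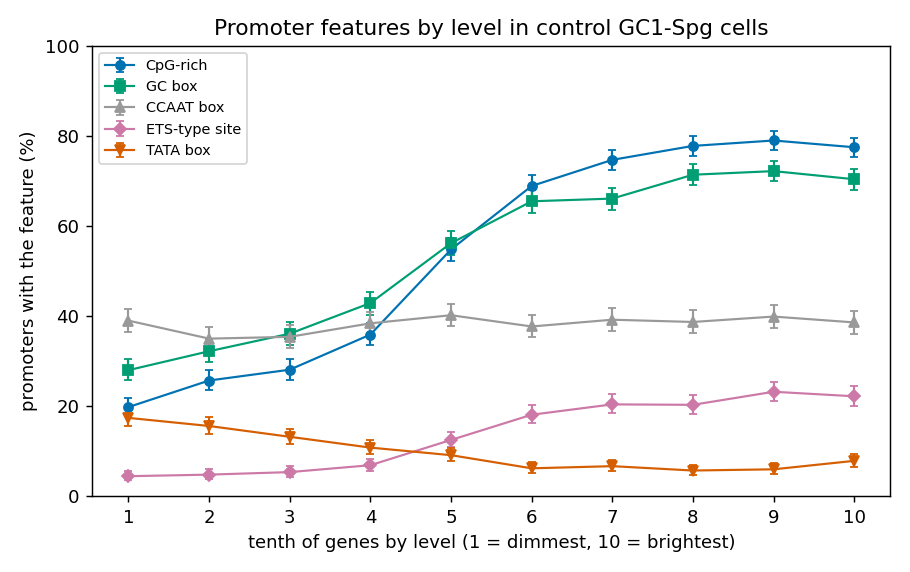
Share of RefSeq promoters that are CpG-rich or hold the GC box, CCAAT box, ETS-type site or TATA box, in percent, for 10 groups of genes ranked by level (1436 or 1437 promoters each), with 95% Wilson intervals. The CpG-rich share goes from 19.8% in the dimmest to 77.5% in the brightest group with most of the step between groups 4 and 6, and the TATA box from 17.4% to 7.86%.

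The following promoters, printed 5′ to 3′ on the gene's strand with the searched motifs in capitals, show these features in single genes. They are from RefSeq on GRCm38.p6. Rpl38 (chr11:114668330-114668629, plus strand), Eef1a1 (chr9:78481675-78481974, minus strand), Pttg1 (chr11:43425932-43426231, minus strand), Sparc (chr11:55420031-55420330, minus strand) and Vim (chr2:13574061-13574360, plus strand) stand for strong genes of translation, mitosis and the mesenchymal lists. Mcm6 (chr1:128359656-128359955, minus strand) and B2m (chr2:122147437-122147736, plus strand) were chosen after their values were seen, as the brightest genes of DNA replication with an E2F-type site and of the interferon response with an interferon element. Ddx4 (chr13:112652261-112652560, minus strand) and the odorant receptor Olfr66 (chr7:103882192-103882491, minus strand) stand for genes that did not pass above the dim limit. Ddx4 averaged 2.31, in the dim class, and Olfr66 4.29, in the weak class.
Rpl38: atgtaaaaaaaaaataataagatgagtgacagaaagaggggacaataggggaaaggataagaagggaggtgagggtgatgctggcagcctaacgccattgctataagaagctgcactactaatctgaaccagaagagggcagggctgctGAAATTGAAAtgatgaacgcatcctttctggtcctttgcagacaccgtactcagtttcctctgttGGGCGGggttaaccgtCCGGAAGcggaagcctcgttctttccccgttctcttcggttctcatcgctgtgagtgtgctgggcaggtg
Eef1a1: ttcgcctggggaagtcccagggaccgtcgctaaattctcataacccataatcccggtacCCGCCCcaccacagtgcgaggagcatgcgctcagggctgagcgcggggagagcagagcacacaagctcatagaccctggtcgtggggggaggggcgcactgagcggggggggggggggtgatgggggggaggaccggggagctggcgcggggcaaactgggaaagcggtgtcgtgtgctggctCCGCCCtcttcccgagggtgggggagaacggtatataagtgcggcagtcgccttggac
Pttg1: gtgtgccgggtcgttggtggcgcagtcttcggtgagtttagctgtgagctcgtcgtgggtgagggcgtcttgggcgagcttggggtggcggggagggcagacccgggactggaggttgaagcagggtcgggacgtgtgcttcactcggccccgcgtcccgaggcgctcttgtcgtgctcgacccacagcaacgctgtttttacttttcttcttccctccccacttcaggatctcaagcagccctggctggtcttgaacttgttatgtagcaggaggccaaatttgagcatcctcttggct
Sparc: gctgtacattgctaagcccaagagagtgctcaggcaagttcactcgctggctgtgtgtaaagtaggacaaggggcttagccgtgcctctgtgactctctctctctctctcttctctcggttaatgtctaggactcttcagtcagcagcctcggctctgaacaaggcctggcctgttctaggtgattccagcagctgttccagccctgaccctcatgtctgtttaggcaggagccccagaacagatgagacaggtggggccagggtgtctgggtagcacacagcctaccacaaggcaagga
Vim: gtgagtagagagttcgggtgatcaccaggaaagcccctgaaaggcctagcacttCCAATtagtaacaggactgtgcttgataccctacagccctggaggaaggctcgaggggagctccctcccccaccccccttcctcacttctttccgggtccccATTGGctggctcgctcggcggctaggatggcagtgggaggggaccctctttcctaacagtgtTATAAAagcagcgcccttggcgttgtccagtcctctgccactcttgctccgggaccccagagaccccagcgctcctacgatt
Mcm6: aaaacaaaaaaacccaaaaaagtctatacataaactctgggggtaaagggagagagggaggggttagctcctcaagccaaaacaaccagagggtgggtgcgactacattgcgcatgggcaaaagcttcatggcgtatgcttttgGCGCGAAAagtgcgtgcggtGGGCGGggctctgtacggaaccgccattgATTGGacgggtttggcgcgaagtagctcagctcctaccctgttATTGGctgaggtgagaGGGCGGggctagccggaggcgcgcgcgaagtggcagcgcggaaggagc
B2m: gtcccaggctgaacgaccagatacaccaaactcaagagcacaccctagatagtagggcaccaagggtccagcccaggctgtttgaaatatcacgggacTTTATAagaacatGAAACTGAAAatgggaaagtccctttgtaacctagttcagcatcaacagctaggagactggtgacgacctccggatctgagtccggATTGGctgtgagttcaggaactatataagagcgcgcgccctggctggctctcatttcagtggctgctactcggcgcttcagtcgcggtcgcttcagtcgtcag
Ddx4: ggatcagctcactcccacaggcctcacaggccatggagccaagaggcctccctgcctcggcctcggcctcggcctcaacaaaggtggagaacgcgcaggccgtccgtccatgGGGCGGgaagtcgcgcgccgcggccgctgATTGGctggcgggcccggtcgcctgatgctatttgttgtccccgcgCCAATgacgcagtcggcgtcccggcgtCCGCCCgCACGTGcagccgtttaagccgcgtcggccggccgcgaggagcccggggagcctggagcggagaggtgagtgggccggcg
Olfr66: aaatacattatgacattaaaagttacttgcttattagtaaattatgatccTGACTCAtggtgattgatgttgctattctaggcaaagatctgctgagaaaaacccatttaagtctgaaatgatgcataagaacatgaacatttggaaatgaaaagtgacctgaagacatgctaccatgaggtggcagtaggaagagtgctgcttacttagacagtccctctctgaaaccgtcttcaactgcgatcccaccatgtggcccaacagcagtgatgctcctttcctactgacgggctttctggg
Positions give a motif's leftmost base, with -1 the base just before the start. The Rpl38 promoter held a GC box at -36 and an ETS-type site at -20. Vim held TATAAA at -32, with CCAAT letters at -196 and -94. Mcm6 held the E2F-type letters at -106, CCAAT letters at -57 and -14 and GC boxes at -86 and 3. B2m held the interferon element at -139. The Ddx4 window held GC boxes at -138 and -36 and CCAAT letters at -109 and -63. None of the searched motifs lay in the windows of Pttg1 and Sparc, which says only that these letters are not there. Sparc had 4 CpG pairs and Ddx4 38, so that a promoter of low CpG content belonged to the gene ranked 16 by signal and a CpG-rich one to a gene under the dim limit.

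Of the 30 brightest genes, 9 belonged to the list of cytosolic ribosomal proteins, 4 to that of the actin and intermediate filament cytoskeleton, 3 to glycolysis, 2 to the translation factors and 2 to the extracellular matrix. Lgals1, a secreted galectin of mesenchymal cells, led with 13.65, 13.64 and 13.64 on arrays 1 to 3. Next came Eef1a1, which brings aminoacyl-tRNA to the ribosome, with 13.37, 13.47 and 13.42, then the ribosomal protein gene Rpl38 with 13.32, 13.36 and 13.39. Cytoplasmic actin Actg1 read 13.22, 13.23 and 13.45, and the growth-associated Tpt1 13.30, 13.23 and 13.36. The 30 brightest lay between 12.85 and 13.64, with SDs from 0.0058 to 0.20, so the order of most neighbours is within their spread. They also held the annexins Anxa1 and Anxa2, the calcium-binding S100a6, ferritin Fth1, lactate dehydrogenase Ldha, the glycolytic enzymes Pgk1 and Tpi1, tubulin Tubb5, thymosin Tmsb10, keratin Krt19, and the matrix genes Sparc and Fn1. Of the 30, 21 were read through a probe set whose ID ends in a form other than plain _at, such as _a_at, _s_at or _x_at. Of these forms, _s_at and _x_at can bind transcripts of related genes. The part of pseudogenes and paralogs in the ribosomal, actin and tubulin signals was not tested.

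Of 80 listed cytosolic ribosomal protein genes, 44 were measured through a probe set of a single symbol. Of these 44, 43 stood at or above the median and passed above the dim limit. The median of the 44 was 12.63 against 6.32 over all genes. The exception was Rps16, whose only probe set of a single symbol read 3.09, 0.56 and 0.11. It passed below the limit (mean 1.25 ± 1.61 SD, n = 3, limma adjusted p = 0.0257). Any probe set that Rps16 shares with other symbols was not read. All measured members stood at or above the median and passed in the lists of translation factors (31 genes, median 11.50), proteasome subunits (31, 11.09), cytosolic tRNA synthetases (19, 9.86), cytosolic chaperones (18, 11.46), endoplasmic reticulum chaperones (25, 10.85), oxidative phosphorylation (53, 11.09), glycolysis (16, 10.62), splicing (32, 10.83) and mitochondrial ribosomal proteins (76, 9.39). The dimmest of these lists' members was Cox7c, a subunit of cytochrome oxidase, at 5.40 ± 0.30. Ldha averaged 12.98 ± 0.06 and led the glycolysis list. P4hb, which helps collagen and other secreted proteins fold, averaged 12.86 ± 0.06 and led its list, as did Cox6a1 at 12.75 ± 0.03.

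All 40 DNA replication genes and all 39 mitosis genes stood at or above the median and passed, with medians of 9.92 and 9.97. Pcna, the sliding clamp of DNA polymerase, read 12.62, 12.81 and 12.73, and the helicase subunit Mcm6 read 11.95, 11.98 and 12.10. Pttg1, the securin that holds back the separation of sister chromatids until anaphase, read 11.79, 12.05 and 11.94. Top2a, which untangles sister chromatids, averaged 11.86 ± 0.19 and the mitotic kinase Cdk1 11.38 ± 0.10. The proliferation antigen Mki67 read 10.46, 10.54 and 10.45. Gins3, at 6.20 ± 0.25, and Kif4, at 7.84 ± 0.09, were the dimmest of the replication and mitosis lists.

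Of single genes that control the cell cycle, cyclin Ccnd1 averaged 10.41 ± 0.31 and Myc 9.82 ± 0.21, and the inhibitors Cdkn1a and Cdkn2a 9.93 ± 0.48 and 8.25 ± 0.45. Rb1, whose protein is a target of the large T antigen, averaged 7.75 ± 0.17. Promoters held CCAAT in 24 of 32 mitosis genes and 21 of 32 DNA replication genes, against 38.2% over all genes. Such a share was not particular to these lists, with CCAAT in 16 of 21 endoplasmic reticulum chaperone promoters. The E2F-type letters lay in 5 of 32 DNA replication promoters, against 0.487%. The ETS-type site lay in 19 of 39 ribosomal protein promoters and in 5 of 12 cytosolic tRNA synthetase promoters, against 13.8% over all genes. In 20 of 39 the ribosomal protein promoters had a run of 6 pyrimidines that opens with C within 10 bases of the start, against 20% over all genes.

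**Figure D3:**
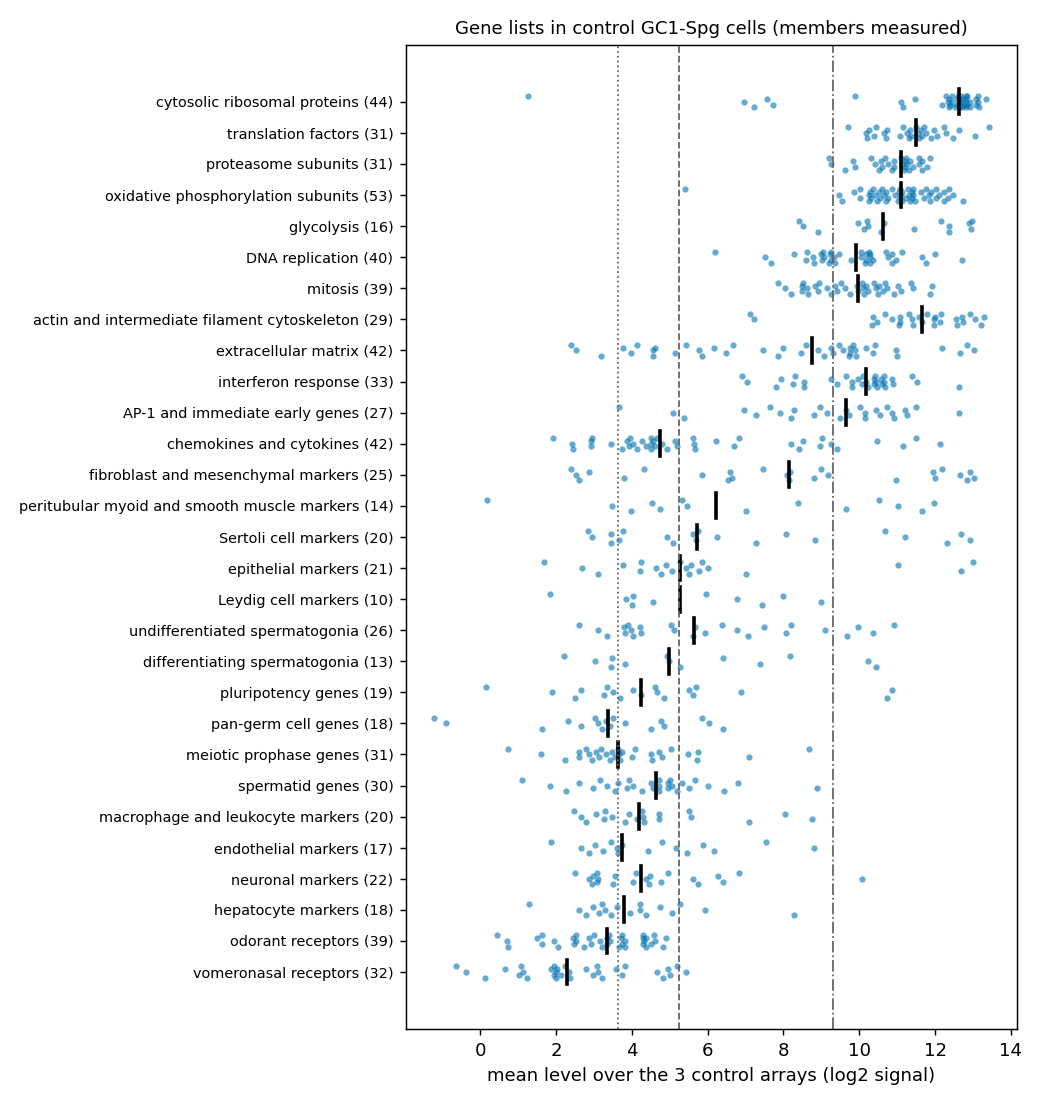
Mean log2 signal of every measured member of 29 gene lists over the 3 control arrays (points; the number of members is in parentheses), with the list's median as a black bar and lines at the dim limit, the median and the strong limit. Translation, energy and cell division lists lie right of the median line except for Rps16, whereas the medians of the pan-germ and meiotic lists, 3.36 and 3.62, lie left of the dim limit.

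The list of pan-germ cell genes was mostly dim, with 11 of 18 genes in that class, against 3 of 26 in the undifferentiated-spermatogonia list. Of 18 pan-germ cell genes, 3 stood at or above the median (60.5% over all genes), 6 passed above the dim limit and 6 below it, and the list's median was 3.36. Ddx4 read 3.31, 1.72 and 1.90 and passed below the limit (mean 2.31 ± 0.87, n = 3, limma adjusted p = 0.0263). It lay under the limit on every array, and the call was lost without array 2 or array 3 (limma adjusted p = 0.115 and 0.0947) and with the limit at the 20th percentile (0.0587). Dazl read 3.73, 3.29 and 2.92 (limma adjusted p = 0.192), on both sides of the limit. The mean of its probe sets, the dimmest of which averaged -0.59, passed below (difference -2.28, limma adjusted p = 0.000507), as did Dazl with the limit at the 30th percentile (difference -0.63, limma adjusted p = 0.0388). Mael and Tdrd1, which work in the piRNA pathway that silences transposons, averaged -0.90 ± 0.49 and -1.23 ± 0.46 and passed below. The highest members were Rnf17 at 6.40 ± 0.13, Tfap2c at 6.03 ± 0.34 and the RNA-binding Dnd1 at 5.85 ± 0.20. Piwil2, a piRNA-binding protein, averaged 4.50 ± 0.13, which passed the limit but lay under the receptors' 95th percentile. At the signal that their probe sets gave, neither Ddx4 nor Dazl passed above the limit, which goes against the labelled cell type. Ddx4 was read through a single probe set, and how well the probe sets of these genes read their transcripts was not tested. Fewer cells with a transcript and less of it per cell cannot be told apart in RNA from a whole culture.

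Of 26 undifferentiated-spermatogonia genes, 14 stood at or above the median (53.8%, against 60.5% over all genes) and 18 passed above the limit (69.2%, against 74.8%), shares near those of all genes. The list's median was 5.63. The highest were genes that many other cells use: the phosphatase Dusp6 (10.93 ± 0.24), the integrins Itga6 (10.37 ± 0.35) and Itgb1 (9.96 ± 0.21), and the tetraspanin Tspan8 (9.67 ± 0.33). Of the transcription regulators of stem cell renewal, Bcl6b averaged 8.07 ± 0.15, Etv5 6.78 ± 0.69 and Id4 6.38 ± 0.35. Gfra1 read 5.96, 5.94 and 5.90 and its co-receptor Ret 3.54, 4.16 and 3.76, not told apart from the limit. The call for Gfra1 was lost when its 3 probe sets were averaged (0.51 above the limit, limma adjusted p = 0.0528). Zbtb16 read 5.10, 5.10 and 4.90 through the brightest of its 3 probe sets, the dimmest of which averaged -0.35, and the mean of the 3 lay under the limit by a difference of -0.81. Sohlh1 (3.09 ± 0.33) and Thy1 (2.60 ± 0.76) passed below, and Pou5f1 (3.33 ± 0.48) and Lin28a (4.03 ± 0.75) were not told apart.

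Among 13 genes listed for differentiating spermatogonia, 6 stood at or above the median (46.2%, against 60.5% over all genes) and 8 passed (61.5%, against 74.8%). The highest were the cyclins Ccna2 (10.45 ± 0.13), which the mitosis list also holds, and Ccnd2 (10.23 ± 0.44) and the retinoic acid receptor Rarg (8.17 ± 0.29). The receptor Kit read 3.87, 3.73 and 3.86, just over the limit and not told apart from it (limma adjusted p = 0.231), though it passed above a limit at the 20th percentile (0.0168). The ligand of Kit, the secreted growth factor Kitl, is counted in this list too and averaged 6.41 ± 0.07. Stra8 read 4.33, 2.91 and 3.19, on both sides of the limit. Rhox13 (2.20 ± 0.20) passed below.

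Few genes of later stages stood at or above the median, against 60.5% over all genes. Of 31 meiotic prophase genes, 5 stood at or above the median, 11 passed above the limit and 9 below, with a median of 3.62. Psmc3ip, a partner of the recombinases, was the highest at 8.68 ± 0.11, followed by the RNA-binding Ythdc2 at 7.08 ± 0.24. Sycp3, of the synaptonemal complex, read 4.97, 5.38 and 4.78, whereas its partners Sycp1 and Sycp2 averaged 3.47 ± 0.49 and 2.24 ± 0.64. Spo11, which makes the double-strand breaks of meiosis, averaged 3.18 ± 0.22 and passed below. Of 30 spermatid genes, 7 stood at or above the median and 18 passed, with a median of 4.64. Odf2, which also serves centrosomes, led at 8.89 ± 0.16. The protamine gene Prm1 read 5.36, 5.81 and 5.83, but the dimmest of its 3 probe sets averaged -1.06, and the mean of the 3 passed below the limit with a difference of -1.09. Prm2 averaged 4.71 ± 0.14 and Tnp1 4.71 ± 0.15, both under the receptors' 95th percentile.

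**Figure D4:**
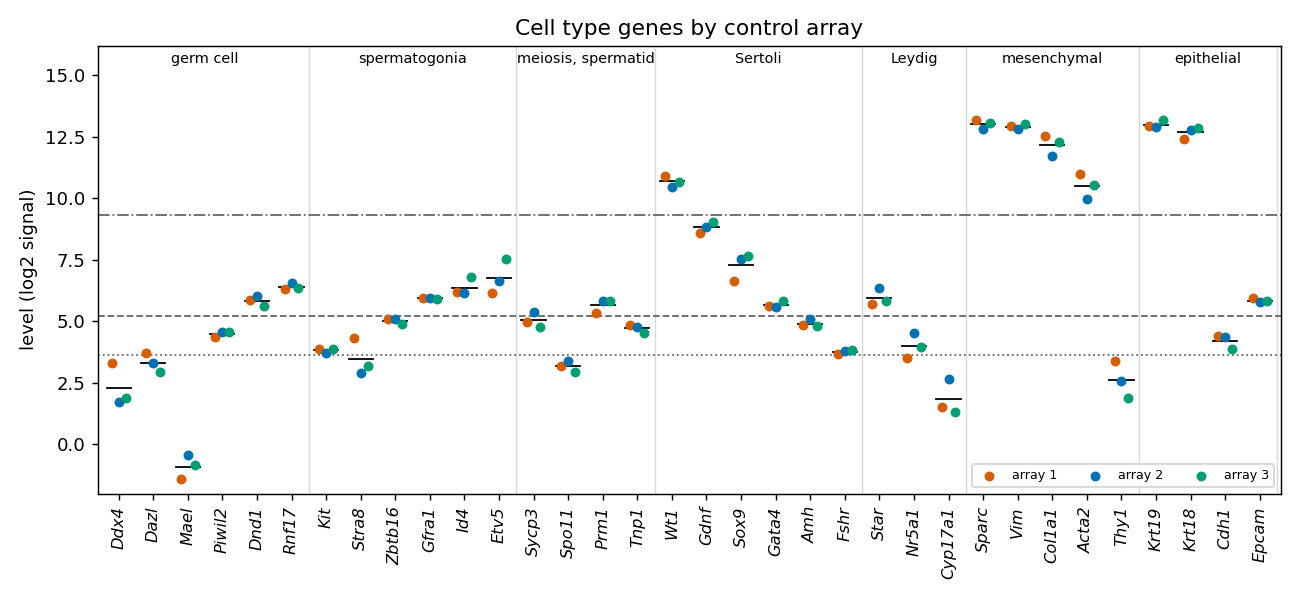
Log2 signal of named cell type genes on each of the 3 control arrays (coloured points) with the mean (black bar); dotted, dashed and dash-dotted lines mark the dim limit, the median and the strong limit. Ddx4 lies under the dim limit on all 3 arrays and Dazl on 2 of the 3, while Wt1, Sparc, Vim and Krt19 lie above the strong limit on all 3.

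Of 25 fibroblast and mesenchymal markers, 19 stood at or above the median (76%, against 60.5% over all genes), 20 passed (80%, against 74.8%) and 8 were strong (15.3% over all genes). The list's median was 8.14, against 6.32 over all genes. Sparc, which binds collagen, read 13.21, 12.81 and 13.07. The intermediate filament gene Vim read 12.95, 12.81 and 13.01, and fibronectin Fn1 12.85, 12.68 and 13.01. Decorin Dcn averaged 12.67 ± 0.04 and collagen Col1a1 12.19 ± 0.42. The transcription factors Snai2 (9.18 ± 0.20), Prrx1 (8.80 ± 0.34) and Zeb1 (8.18 ± 0.21) and the receptor Pdgfra (8.99 ± 0.27) also passed. Other markers of fibroblasts did not pass above: Pdgfrb averaged 3.79 ± 0.72, Postn 2.51 ± 1.52 and Dpt 2.87 ± 0.73, and Lum (2.39 ± 0.75) and Thy1 passed below.

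The wider extracellular matrix list, which shares 8 genes with the fibroblast list, had 32 of 42 genes at or above the median (76.2%), and the basement membrane collagen Col4a1 averaged 11.01 ± 0.17. Among matrix proteases and their inhibitors, with 18 of 25, the protease inhibitor Timp2 (12.74 ± 0.16) and the cathepsins Ctsl (12.41 ± 0.07) and Ctsb (11.79 ± 0.12) led, and the elastase Mmp12 (1.49 ± 1.49) passed below.

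Of 20 Sertoli cell markers, 12 stood at or above the median (60%, against 60.5% over all genes) and 14 passed (70%, against 74.8%), shares near those of all genes. Wt1, a transcription factor of Sertoli cells and of embryonic mesoderm, read 10.92, 10.47 and 10.67 and was strong on all 3 arrays. The only probe set that read Wt1 is of the _s_at form, which can bind transcripts of related genes. Gdnf, the ligand of the receptor encoded by Gfra1, read 8.59, 8.84 and 9.04, and Sox9 read 6.64, 7.55 and 7.64. Clusterin Clu averaged 12.31 ± 0.15. The FSH receptor Fshr (3.76 ± 0.09) and Cldn11 (3.65 ± 0.72) were not told apart from the limit, and the hormone gene Amh averaged 4.91 ± 0.15. Of 14 peritubular myoid and smooth muscle markers, 9 stood at or above the median (64.3%), again near the share of all genes. Smooth muscle actin Acta2 read 10.97, 9.99 and 10.56, with Cald1 at 11.96 ± 0.31 and Tpm1 at 11.65 ± 0.18. The later contractile genes Myh11 (3.47 ± 0.92) and Cnn1 (3.97 ± 0.64) were not told apart. Of 10 Leydig cell markers, 5 stood at or above the median and 6 passed (60%). With the limit at the 20th percentile, 90% of these markers passed, against 78.9% over all genes. The highest were the growth factor receptor Pdgfra (8.99 ± 0.27), which the fibroblast list also holds, the lipoprotein receptor Scarb1 (7.99 ± 0.43), the nuclear receptor Nr2f2 (7.44 ± 0.41) and the steroid dehydrogenase Hsd11b1 (6.79 ± 0.34), and Hsd17b3 (4.56 ± 0.24) passed too. The steroidogenic enzymes Cyp11a1 (3.83 ± 0.29) and Hsd3b1 (4.03 ± 0.54) and their regulator Nr5a1 (4.0 ± 0.50) were not told apart, and Cyp17a1 (1.84 ± 0.73) passed below. Star, which brings cholesterol into mitochondria, averaged 5.97 ± 0.33, a call that was lost when its 3 probe sets were averaged (limma adjusted p = 0.0766).

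Of 21 epithelial markers, 11 stood at or above the median (52.4%, against 60.5% over all genes), 17 passed above the limit (81%, against 74.8%) and 3 passed below. The 3 strong members were keratins. Krt19 read 12.96, 12.89 and 13.17, Krt18 averaged 12.69 ± 0.23 and Krt14 11.01 ± 0.41, and Krt8, the usual partner of Krt18, averaged 7.01 ± 0.43. E-cadherin Cdh1 read 4.39, 4.36 and 3.89. Its call above the limit was lost without array 1 or without array 2 (limma adjusted p = 0.118 and 0.109) and with the limit at the 30th percentile (0.187). The desmosomal Dsp averaged 6.02 ± 0.34 and the tight junction gene Ocln 5.43 ± 0.17. The adhesion molecule Epcam averaged 5.84 ± 0.09, and the epithelial splicing regulator Esrp1 (2.69 ± 0.41), the protease St14 (3.11 ± 0.21) and claudin Cldn7 (1.69 ± 0.34) passed below. Of 48 keratins, 16 stood at or above the median (33.3%). Keratin promoters held TATAAA in 18 of 32, against 9.85% over all genes.

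Markers of cell types from outside the tubule were mostly in the weak and dim classes. At or above the median stood 5 of 20 macrophage and leukocyte markers, 5 of 17 endothelial, 6 of 22 neuronal and 3 of 18 hepatocyte markers. The highest of these lists were, in the same order, the lysosomal Cd68 (8.76 ± 0.37), the VEGF receptor Flt1 (8.82 ± 0.24), the enolase Eno2 (10.09 ± 0.43) and haptoglobin Hp (8.27 ± 1.21). The endothelial Pecam1 averaged 2.64 ± 0.53 and passed below the limit. Without array 1, the members that passed above it went from 55% to 30% of the leukocyte list and from 44.4% to 27.8% of the hepatocyte list. Of 19 pluripotency genes 6 stood at or above the median. Klf4 (10.86 ± 0.12) and Klf2 (10.73 ± 0.52), which somatic cells use too, were strong, Nanog (3.50 ± 0.09) was not told apart and Sox2 (0.14 ± 1.03) passed below.

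All 33 measured members of the interferon response list stood at or above the median and passed, 24 were strong, and the list's median was 10.18. The class I light chain B2m read 12.44, 12.79 and 12.67, and the antiviral RNA sensor Oas1a read 10.60, 11.11 and 10.95. Xaf1 averaged 11.40 ± 0.23, Ifi35 11.52 ± 0.24 and Rtp4 10.86 ± 0.21. The dimmest were Psmb9 at 6.90 ± 0.29, Mx1 at 7.03 ± 0.55 and Dhx58 at 7.81 ± 0.22. The interferon element, GAAA followed after 2 free bases by GAAA, lay in 13 of 25 of these promoters, against 3.03% over all genes. The levels of these genes before transfection were not analysed here.

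Of 42 chemokines and cytokines, 17 stood at or above the median (40.5%), 28 passed above the limit and the list's median was 4.73. The neutrophil attractants Cxcl1 (12.17, 12.25 and 11.98) and Cxcl5 (11.39, 11.20 and 10.89) and the monocyte attractant Ccl2 (11.60, 11.42 and 11.45) were strong on all arrays. Cxcl10 and Ccl5, which also belong to the interferon list, averaged 10.46 ± 0.13 and 9.40 ± 0.53. At the other end, Il5 (2.44 ± 1.56) and Cxcl2 (1.93 ± 2.17) scattered between arrays and were not told apart from the limit, and Ccl11 (2.41 ± 0.59) passed below. TATAAA lay in 12 of 30 of these promoters.

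Of 43 secreted growth factors, 29 stood at or above the median (67.4%, against 60.5% over all genes). The matrix-associated Ccn2 read 10.73, 10.96 and 12.68, with array 3 high, and Ccn1 averaged 10.66 ± 0.63. Bmp4 (10.52 ± 0.20), Fgf5 (9.98 ± 0.43) and Vegfa (9.90 ± 0.38) followed. Fgf2, a factor added to cultures of spermatogonial stem cells, averaged 2.89 ± 0.13 and passed below. Of 47 receptor tyrosine kinases, 30 stood at or above the median (63.8%, near the share of all genes), led by the collagen receptor Ddr1 (10.62 ± 0.07), Axl (10.61 ± 0.32), Epha2 (10.08 ± 0.42) and Met (9.83 ± 0.26), with Erbb4 (1.33 ± 1.22) and Tie1 (3.24 ± 0.15) below.

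Of 27 AP-1 and immediate early genes 25 stood at or above the median, led by Ier3 (12.63 ± 0.17), Btg1 (11.49 ± 0.14) and Jund (11.25 ± 0.28), and Fosb (3.67 ± 0.15) was not told apart from the limit. Of 37 general and growth-related transcription factors 35 did, led by Atf4 (11.36 ± 0.16) and the chromatin protein Hmga2 (11.12 ± 0.58). The Wnt mediator Ctnnb1 read 12.41, 12.59 and 12.52. The RNA helicases Ddx5 and Ddx17 averaged 11.97 ± 0.10 and 11.29 ± 0.09, which is 8.34 and 7.65 above the limit. Through plain _at probe sets alone the differences were 1.09 for Ddx5 (limma adjusted p = 0.00987) and 0.18 for Ddx17 (limma adjusted p = 0.362). Phkb, the phosphorylase kinase subunit in whose intron the mrhl RNA is encoded, read 7.60, 7.58 and 7.69.

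Of 36 genes in the Hox family by symbol, which set position along the body axis, 21 stood at or above the median (58.3%, near the 60.5% of all genes) and 0 were strong (15.3% over all genes). The highest were Hoxa9 (8.94 ± 0.17), Hoxc10 (8.31 ± 0.32), Hoxc6 (8.03 ± 0.09) and Hoxb3 (7.97 ± 0.17), and Hoxd12 (0.46 ± 1.32) and Hoxd1 (1.04 ± 1.89) passed below. Of 43 nuclear receptors 23 stood at or above the median (53.5%), led by the glucocorticoid receptor Nr3c1 (10.17 ± 0.04), whereas the oestrogen receptor Esr2 averaged 2.93 ± 0.84. All 6 Gata factors passed, with Gata6 the highest at 9.18 ± 0.22 and Gata4 at 5.68 ± 0.14. Sox4 (11.49 ± 0.23) led the 19 Sox genes, of which 7 stood at or above the median. Among 72 cytochrome P450 genes, 13 did, and 3 were strong, led by Cyp1b1 (12.56 ± 0.06) and Cyp2s1 (10.58 ± 0.14). Of 84 potassium channel genes, 15 did and 0 were strong.

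Sex-linked and noncoding transcripts were also read. The Y-linked Eif2s3y read 8.40, 8.36 and 7.91, Uty averaged 6.09 ± 0.34 and Kdm5d 6.06 ± 0.51, whereas Zfy2 (2.71 ± 0.59) passed below. Xist, which silences an X chromosome in female cells, read 4.07, 4.24 and 4.24 through the brightest of 3 probe sets, and the mean of the 3 passed below the limit with a difference of -0.85. Its call above the limit was also lost without array 2 or array 3 (limma adjusted p = 0.0637 and 0.0885) and with the limit at the 30th percentile (0.14). Of 617 X-linked genes 65.3% passed above the limit, against 74.8% over all genes. Of 25 long noncoding RNAs chosen as known ones, 18 stood at or above the median, led by Neat1 (11.41 ± 0.08), Zfas1 (11.35 ± 0.12), Snhg1 (11.20 ± 0.21) and Gas5 (10.81 ± 0.12). Tsix (3.10 ± 0.77) was not told apart. Over all 1354 genes that RefSeq types as lncRNA, 42.4% passed and 42.7% were dim, against 78.0% and 15.6% of 16468 protein-coding genes.

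Genes had on average 1.24 probe sets in the dim and 2.57 in the strong class, and taking the brightest of more probe sets raises a level. Of 4940 middle genes with several probe sets, 25.2% had their dimmest under the dim limit, and of 1971 such strong genes 13.2%. The 9160 probe sets that the probe table does not list were dimmer than those with a single symbol, with 38.9% against 21.4% in the dim class. The 932 with several symbols, which named no gene, were strong in 29.4%, against 11.5% of those with a single symbol.

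Among genes at or above the median, the 15 with the largest SD had SDs from 1.08 to 1.34, against a median of 0.24 over all genes. Array 1 was the highest of the 3 in 5 of them, the lowest in 9 and between in 1. Islr, a secreted protein of mesenchymal cells, read 7.56, 4.96 and 5.67, and Hp 9.66, 7.75 and 7.41. Oasl1 of the interferon response read 8.37, 10.03 and 10.54, and the activin subunit Inhba 8.36, 8.62 and 10.35. Xanthine dehydrogenase Xdh read 9.73, 9.80 and 7.67, and the histone gene H3f3b 9.07, 6.49 and 7.89. Against the mean of the other arrays, array 1 was at least 2-fold higher in 83 and lower in 67 of 10998 genes, array 2 in 16 and 48, and array 3 in 50 and 16. The part of the labelling, which the poly-A spikes follow, in these differences was not tested.

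**Figure D5:**
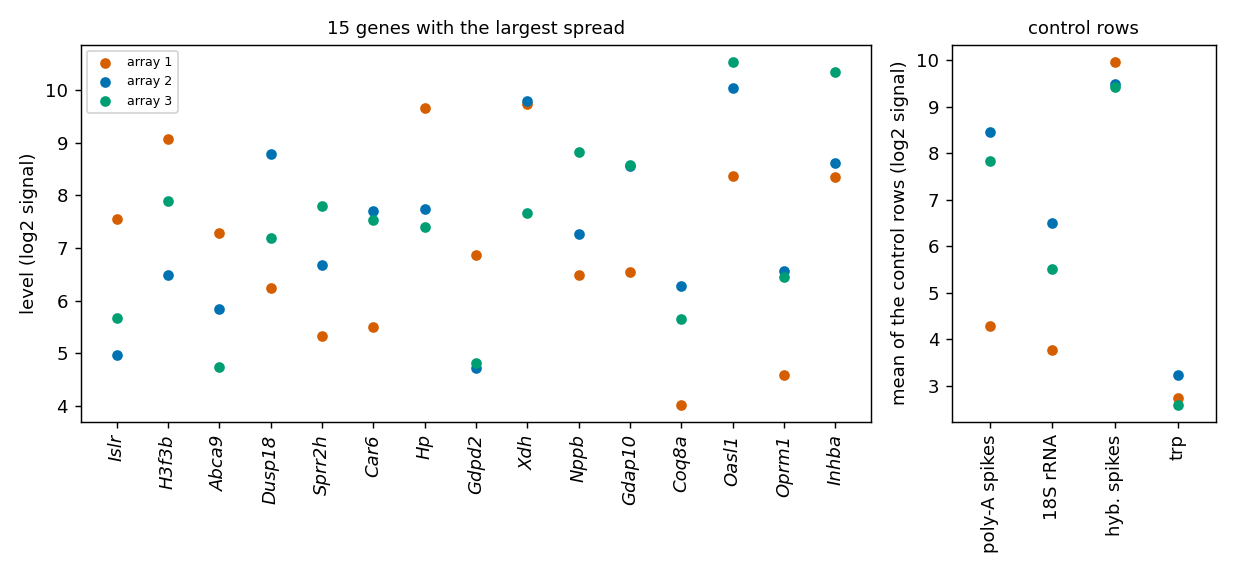
Log2 signal on each control array (coloured points) of the 15 genes with the largest SD among those at or above the median (left), and the mean of 4 kinds of control row on each array (right). Array 1 is at an end of the range in 14 of the 15 genes, and its poly-A spike and 18S rows lie below those of the other arrays.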

How the data were processed

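The deposited table gives each probe set a log2 signal on each array. The log2 scale was read from their range, which includes negative values. The submitters' processing notes name GCOS and PLIER. Versions, settings and scaling of the arrays to each other were not given in the sources used here. No further normalization was applied to the deposited values, and 3 other per-sample columns were not used. Depth has no meaning for arrays; their number, 3, limits the precision.

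Genes were named from the platform's probe table; probe sets with several symbols named none. Each level minus the dim limit was tested against 0 with lmFit and eBayes of limma 3.58.1 under R 4.3.3, two-sided, with Benjamini-Hochberg adjustment over 45037 probe sets and a threshold of 0.05. The limit was treated as fixed although it comes from the same arrays. The fit was tested on simulated data. Promoters came from RefSeq's table for GRCm38.p6, the promoter listed at the top where a gene had several (2647 genes).

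The members and lists (39 by hand, 12 by symbol, of which histone clusters matched 0 genes) were chosen with earlier results of these data known. Named were the 30 brightest genes, in germ and other cell lists any member, in other lists up to 6 of the brightest and 3 of the dimmest, the 15 of largest SD from the median up, the 4 nearest the limit, and 24 found of 26 always to be named; Trp53 and Gapdh had no probe set of a single symbol. In the lists, 8 symbols were updated through RefSeq synonyms. Chosen after seeing the data were the receptor limit, the genes with a single promoter, the E2F-type, AP-1, E box, CRE, interferon and pyrimidine motifs, the TATA window, and the promoters of Mcm6 and B2m. AP-1 (TGAGTCA) and E box (CACGTG) letters lay in 4.36% and 9.04% of promoters.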

Additional observations from a re-analysis of the deposited data

How the results depend on the processing

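No paired analysis was possible because a single group was used and no groups were compared. The number of genes above the dim limit ran up to 14359 (limit at the 20th percentile), fell to 11994 of the 16591 genes that plain _at probe sets measure (72.3%), and was 13077 to 13258 with an array left out and 10696 against the receptors. The strong class fell from 2786 to 1416 genes when a gene's probe sets were averaged. Plain _at probe sets measured 16 of the 30 brightest genes, of which 10 were strong.

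Of 450 list shares above the limit, 437 stayed within 1.5 times. With the limit at the 30th percentile, they were 35% for leukocyte, 27.8% for hepatocyte, 15.4% for odorant receptor and 29.4% for crystallin genes. Averaged probe sets gave 22.2% for hepatocyte, 42.9% for Y-linked, 12.5% for vomeronasal receptor and 29.8% for potassium channel genes, and plain _at probe sets 42.9% for Y-linked genes. With an array left out, the lowest and highest shares were 30% and 50% for leukocyte, 27.8% and 38.9% for hepatocyte, and 15.4% and 25.6% for odorant receptor genes.

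Differences from the limit that turned sign were, with averaged probe sets, Kit -0.52, Zbtb16 -0.81, Prm1 -1.09, Xist -0.85 and Wdr17 -0.27. With the limit at the 30th percentile they were Kit -0.13, Wdr17 -0.31 and Lct -0.31, and at the 20th Dazl 0.0004, Pzp 0.32 and Trim66 0.32. Wdr17 also turned with quantile normalization (-0.0042) and plain _at probe sets (-0.54). With an array left out, the lowest and highest differences were -0.21 and 0.29 for Pzp, -0.061 and 0.022 for Trim66, -0.17 and 0.25 for Wdr17, and -0.15 and 0.12 for Lct, and those of no other gene tested so turned sign. Apart from Prm1 and Xist, none of the turned values passed the test in limma.

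Promoter shares with averaged probe sets were 25.1%, 37.1%, 72% and 74.8% CpG-rich from dim to strong, 32.3%, 42.5% and 66.8% with a GC box from dim to middle, 7.76% and 19.3% with an ETS-type site in weak and middle, and 11.5% with a TATA box in weak genes. With single-promoter genes only, chosen after seeing the data, CpG-rich shares were 70.2% in middle and 81.2% in strong, and GC box shares 65.8% and 73.0%. Of the 15 genes of largest SD, 14 stayed under quantile normalization and under equal medians. The causes of these shifts were not tested beyond what each setting changes.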
